A study of Mus musculus with 2 samples.

Results

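The genes described here are the 35 genes of glycolysis and the hypoxia response that were chosen by their symbols, out of 55536 genes in the deposited tables. They cover glucose entry, the 10 steps from glucose to pyruvate, the enzymes that steer those steps, lactate formation and export, and the oxygen sensor with 2 of its target genes. Each symbol matched a gene identifier, and Aldoa matched a second identifier that held 0 counts in replicate 1 and 1 count in replicate 2 and was left out of its level. The genes were picked by name and by no rule on a measured value, but earlier results of these data were known when members and lists were chosen.

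Bone marrow-derived macrophages, which are phagocytes grown in culture from marrow progenitors, came from C57BL/6J mice and had no genetic change named in the labels. Per the description, the cells met 100 ng/ml Lipid A, the lipid part of bacterial endotoxin, for 12 h, were washed and rested for 12 h, and met 100 ng/ml Lipid A again for 300 min. In another field of the labels the agent is lipoprotein A, typed as a protein. PolyA-selected RNA from whole cells was sequenced from 1 µg of input as 2 biological replicates of this 1 group, which share a donor identifier and have separate biosample identifiers; age and sex were not collected. No other group is analysed here, so no value below is a response to Lipid A, and with 1 group no test between conditions was possible.

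Glycolysis splits a glucose molecule into a pair of pyruvate molecules in the cytosol and yields ATP without oxygen. Activated macrophages are known for a high flux through it and for turning pyruvate into lactate. HIF-1, a transcription factor made of the Hif1a product and Arnt, is known to raise most of these genes: with oxygen, prolyl hydroxylases mark the alpha subunit for destruction by the von Hippel-Lindau ubiquitin ligase. Its control is mainly at the protein, which these RNA data do not measure.

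Expected counts over all genes totalled 50503159 in replicate 1 and 46342331 in replicate 2, and the 35 genes took 0.454% and 0.488% of them. All 8 macrophage markers, among them Adgre1, Cd68 and Lyz2, stood at 74.4 TPM or more in both libraries, where TPM is a transcript abundance per length, scaled to a fixed total. The 5 neutrophil markers summed to 61.3 TPM in replicate 1 and 3.84 TPM in replicate 2, with Ly6g at 0 in both and S100a9 at 37.9 and 2.23 TPM. The 3 endothelial markers summed to 14.3 and 44.7 TPM, of which Kdr held 11.0 and 41.6 TPM, while Cdh5 stood at 1.38 and 0.87 TPM. Markers of B cells, T cells and fibroblasts each summed to 0.60 TPM or less, and the 3 erythroid markers had 0 counts.

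Of the 35 genes, 11 reached 100 TPM or more in both libraries, 21 reached 10 TPM or more, 31 reached 1 TPM or more, and 2, Epas1 and Egln3, stayed under 1 TPM in both. The middle of the ranked list lay at 22.1 TPM (replicate 1) or 17.9 TPM (replicate 2), the median of the 35 genes. The median of the 9781 protein-coding genes at 1 TPM or more in both libraries was 16.8 TPM in each. The median of the 35 genes also counts members under 1 TPM, which lowers it, so these medians are of unlike sets. A median of the 31 members past the same line was not computed. Gpi1, the lowest of the 11, stood above 89.3% and 89.2% of these protein-coding genes. Pfkfb4, the lowest of the 21, stood above 37.3% and 38.3% of them. Shares of all genes past these lines were not computed, so the counts describe the 35 genes only. Of the 11 genes at 100 TPM or more, 9 encode enzymes of the 10 steps, and the other 2 are Ldha and the transporter Slc2a6. Each level below is given for replicate 1 and then replicate 2, and coordinates are those of GENCODE M21 on mm10.

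**Figure D1:**
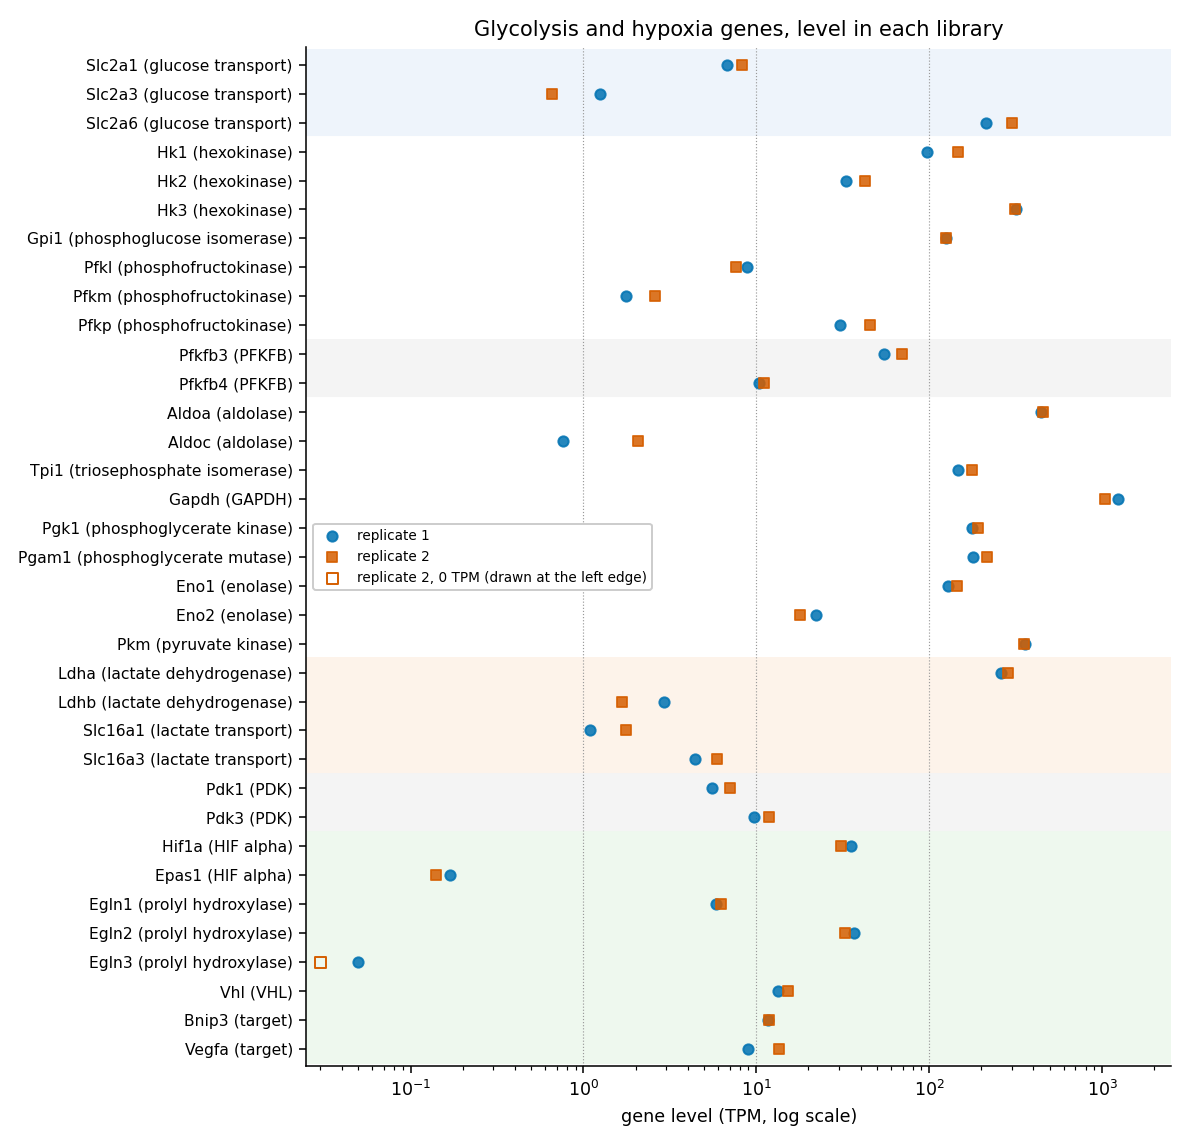
Level of each of the 35 genes in TPM on a log scale, in pathway order from glucose entry at the top to the hypoxia genes at the bottom, with circles for replicate 1 and squares for replicate 2. Gapdh is the highest at 1232 and 1043 TPM, Egln3 is the lowest at 0.05 and 0 TPM, and the symbols of a gene lie close together next to the spread between genes.

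The exon choice of Pkm and the promoters with the most copies of the hypoxia response core are shown first. The results on pyruvate kinase refer to the exons, and no level below is read from the promoters. Pkm, on chromosome 9 of mm10 (59656368 to 59679375, plus strand), makes pyruvate kinase in an M1 or an M2 form by using 1 of 2 exons that exclude each other. The exons, from GENCODE M21 transcripts, are both 167 nt long, and each is exon 9 of its transcript. The M2-type exon of Pkm-201 lies at chr9:59675568-59675734 and the M1-type exon of Pkm-202 at chr9:59675029-59675195. Capitals mark the 64 positions at which they differ; the other 103 positions are the same, an identity of 61.7%.
Pkm M2-type exon: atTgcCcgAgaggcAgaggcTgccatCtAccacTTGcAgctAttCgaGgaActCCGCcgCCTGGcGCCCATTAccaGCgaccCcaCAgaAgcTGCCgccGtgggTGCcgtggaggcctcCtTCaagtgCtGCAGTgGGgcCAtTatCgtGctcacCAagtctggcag
Pkm M1-type exon: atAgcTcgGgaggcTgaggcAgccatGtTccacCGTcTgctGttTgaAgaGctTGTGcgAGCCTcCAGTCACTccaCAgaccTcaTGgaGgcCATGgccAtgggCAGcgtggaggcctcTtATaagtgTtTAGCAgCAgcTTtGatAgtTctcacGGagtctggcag

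HIF binds a short core in DNA, searched here as ACGTG or GCGTG on both strands, in windows of 300 bases around annotated start sites from RefSeq on GRCm38.p6, the same assembly as mm10. A palindrome such as CACGTG counts as 2 overlapping matches. RefSeq windows were found for 33 of the 35 genes, with none for Epas1 and Slc2a3. At least 1 match stood in 38 of their 48 windows (79.2%), against 14380 of 32851 windows of all genes (43.8%) and 62.9% of the windows of protein-coding genes at 1 TPM or more in both libraries. The ACGTG form alone stood in 52.1%, 19.6% and 26.3% of the same windows. A match is a run of letters and not a measured binding site.

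The windows with the most matches belonged to Ldha, with 7, and Egln2, with 6. Their 250 bases before the start site are printed 5′ to 3′ on the strand of the gene, with the matches in capitals. These stretches hold 5 and 4 of the matches, at chr7:46845554-46845803 on the plus strand for Ldha and at chr7:27166803-27167052 on the minus strand for Egln2. Ldha-202, which carried 99.1% of Ldha TPM, starts at 46845839, and Egln2-201, which carried 93.0% of Egln2 TPM, starts at 27166802.
Ldha: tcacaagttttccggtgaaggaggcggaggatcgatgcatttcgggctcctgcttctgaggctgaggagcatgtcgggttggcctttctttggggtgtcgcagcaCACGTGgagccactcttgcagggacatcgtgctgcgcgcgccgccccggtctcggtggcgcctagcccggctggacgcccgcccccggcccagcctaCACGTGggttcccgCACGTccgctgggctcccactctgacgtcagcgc
Egln2: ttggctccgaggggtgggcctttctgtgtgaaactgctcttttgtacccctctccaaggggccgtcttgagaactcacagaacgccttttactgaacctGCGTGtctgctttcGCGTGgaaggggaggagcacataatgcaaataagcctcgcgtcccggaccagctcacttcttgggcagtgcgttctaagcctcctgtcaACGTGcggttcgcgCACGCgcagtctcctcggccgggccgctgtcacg

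Of the 3 transporter genes chosen for glucose entry, Slc2a6 had by far the most RNA. It encodes a hexose transporter known from lysosomes of inflammatory macrophages. Slc2a6 (chromosome 2, 27021363 to 27027998, minus strand) stood at 212 and 301 TPM. Slc2a1, the widely expressed glucose transporter of the plasma membrane, stood at 6.73 and 8.28 TPM. Slc2a3, the high-affinity transporter of neurons, stood at 1.25 and 0.66 TPM. Slc2a6 thus held 96.7% ± 0.52 (SD, n = 2) of the TPM of the 3 genes, and no library of Slc2a1 came near any library of Slc2a6. Of related transporters outside the 35 genes, Slc2a9 stood at 10.6 and 9.65 TPM, above Slc2a1, and Slc2a8 at 6.33 and 3.79 TPM. On the log2(TPM + 1) scale, the level of Slc2a1 lay below that of Slc2a6 by a difference of -4.79 and -5.02.

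Hexokinases trap glucose by phosphorylation, and here Hk3, the isoenzyme known from myeloid cells, was the main one. Hk3 (chromosome 13, 55005985 to 55021385, minus strand) stood at 317 and 313 TPM. Hk1, which docks on mitochondria and is expressed in most tissues, stood at 96.7 and 146 TPM. Hk2, the inducible mitochondrial form, stood at 33.0 and 42.2 TPM. The order Hk3, Hk1, Hk2 was the same in both libraries without overlap, and Hk3 held 71.0% and 62.4% of the step. By counts, Hk3 lay 1.09-fold apart between libraries and Hk1 1.48-fold, with Hk1 higher in replicate 2, where the Hk3 share was lower.

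Hk1 and Hk2 levels depended on short partial transcripts. In the first quantification, the one made from a transcriptome alignment, Hk2-202, a 594 nt processed transcript, took 14.4 and 18.9 TPM of Hk2. In the second quantification, made directly from the reads, it took 0, so that Hk2 stood at 18.9 and 23.6 TPM there. The order of the 3 hexokinases was the same in both quantifications. The leading transcript of Hk1 was Hk1-212, an 896 nt entry outside the GENCODE basic set, with 34.6% ± 2.14 (SD, n = 2) of the TPM of the gene. Hk1-202 and Hk1-201, both of the basic set, held most of the rest in the first quantification.

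Gpi1, which turns glucose 6-phosphate into fructose 6-phosphate, stood at 125 and 124 TPM. Transcripts annotated as coding held 69.9% and 62.0% of the Gpi1 level. Phosphofructokinase, which commits the sugar to glycolysis, was the step with the lowest summed level of the 10, at 41.2 and 55.8 TPM. Its main isoenzyme was Pfkp, the platelet type (chromosome 13, 6579768 to 6648777, minus strand), at 30.5 and 45.5 TPM. Pfkl, the liver type, stood at 8.86 and 7.64 TPM. Pfkm, the muscle type, stood at 1.76 and 2.59 TPM. Pfkp held 77.9% ± 5.28 (SD, n = 2) of the step, and the levels of the 3 genes did not overlap. In the second quantification Pfkm stood at 2.26 and 5.75 TPM, still below Pfkl at 9.36 and 7.61 TPM.

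Pfkfb3 and Pfkfb4 encode enzymes that make or remove the fructose bisphosphate that switches phosphofructokinase on. Pfkfb3, the strongly activating form known to be inducible by inflammation and hypoxia, stood at 54.9 and 69.4 TPM. Pfkfb4 stood at 10.4 and 11.0 TPM. Pfkfb3 held 85.2% ± 1.56 (SD, n = 2) of the pair, and its level was above that of the main phosphofructokinase gene, Pfkp, in each library. The transcript of Pfkfb3 that led differed between quantifications: Pfkfb3-220 held 42.1% and 46.8% in the first and 7.33% and 3.59% in the second, where Pfkfb3-206 led.

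Aldolase splits the hexose into 2 trioses. Aldoa, the muscle and general form (chromosome 7, 126795234 to 126800751, minus strand), stood at 445 and 454 TPM. Aldoc, the brain form, stood at 0.76 and 2.06 TPM, from 65 and 152 counts. Aldoa held 99.7% ± 0.20 (SD, n = 2) of the step. Tpi1, which interconverts the trioses, stood at 146 and 176 TPM.

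Gapdh, which oxidises the triose and makes NADH (chromosome 6, 125161715 to 125166467, minus strand), was the highest of the 35 genes at 1232 and 1043 TPM, at percentiles 99.1 and 98.9 among the 9781 protein-coding genes. Its lead over Aldoa, the next gene, was held in both quantifications, in which Gapdh stood at 907 and 847 TPM in the second. The order of the libraries was less firm. Gapdh-208, a 483 nt processed transcript, took 350 and 140 TPM in the first quantification and 8.05 and 5.07 TPM in the second. Over GENCODE basic transcripts alone, a choice made after seeing the data, Gapdh stood at 875 and 897 TPM, so that the library with the higher value changed. By counts, Gapdh lay 1.03-fold apart between libraries.

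Pgk1, the first ATP-yielding enzyme, stood at 176 and 191 TPM. Pgam1, which moves the phosphate group, stood at 179 and 214 TPM. Enolase came mainly from Eno1, the general form, at 129 and 145 TPM. Eno2, known as the neuronal form, stood at 22.1 and 17.9 TPM. Eno1 held 87.2% ± 2.56 (SD, n = 2) of the step. Eno2 RNA was of mixed kinds: its leading transcript, Eno2-201, held 26.2% and 43.2% of the TPM, and transcripts annotated as coding held 55.8% and 66.8%.

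Pkm, which makes pyruvate and ATP, stood at 356 and 351 TPM, the third highest of the 35 genes. Of the TPM of Pkm-201 and Pkm-202, the transcript with the M2-type exon printed above held 76.1% and 74.7%, and the one with the M1-type exon 23.9% and 25.3%. The second quantification gave 75.05% and 71.65% to the M2 type, so the M2 type led in each library and in each quantification. The 2 transcripts also differ at their ends, with Pkm-201 starting at 59656368 and ending at 59679375 and Pkm-202 starting at 59656573 and ending at 59679189, so reads of those ends enter the shares as well as reads of the exon.

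**Figure D2:**
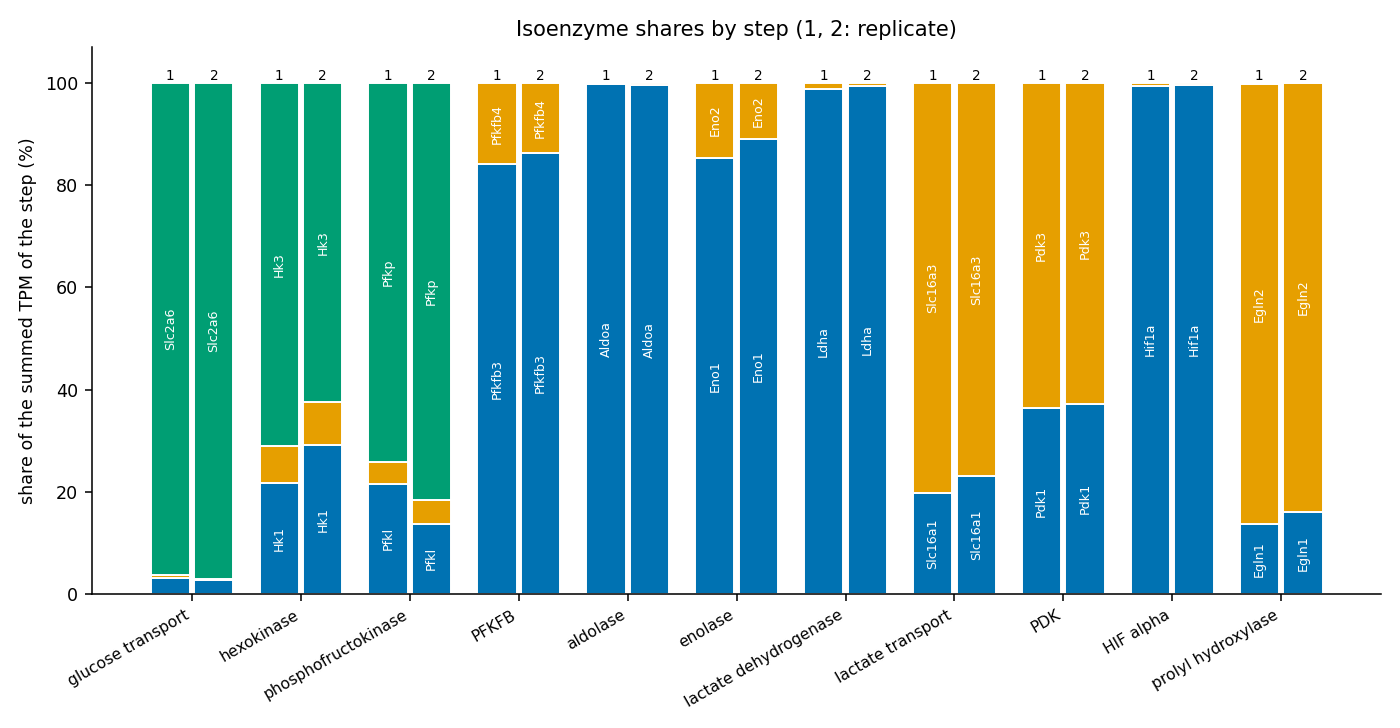
Share of the summed TPM held by each isoenzyme, in percent, at the 11 steps or families with more than 1 member, with 1 bar for each replicate. Of the chosen genes, 1 takes more than 95% of glucose transport, aldolase, lactate dehydrogenase and HIF alpha, while hexokinase, with Hk3 at 71.0% and 62.4%, and PDK, with Pdk3 at 63.7% and 62.8%, are the most mixed.

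Summed over members, the 10 steps from hexokinase to pyruvate kinase held 3298 and 3275 TPM, 3287 ± 16.7 (SD, n = 2). The GAPDH step held 1137 ± 133 TPM, hexokinase 474 ± 38.0 TPM, aldolase 451 ± 7.11 TPM and pyruvate kinase 353 ± 2.95 TPM. The other steps apart from phosphofructokinase lay between 125 ± 0.67 TPM for Gpi1 and 196 ± 25.1 TPM for Pgam1. RNA for phosphofructokinase, at 48.5 ± 10.3 TPM, was the one step under 100 TPM in both libraries. Over GENCODE basic transcripts alone, a choice made after seeing the data, Gpi1 also lay under 100 TPM, at 87.4 and 77.0 TPM.

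Lactate dehydrogenase turns pyruvate into lactate and gives back NAD. Ldha, the form known to favour lactate (chromosome 7, 46841475 to 46855627, plus strand), stood at 259 and 283 TPM. Ldhb, the heart form, stood at 2.91 and 1.68 TPM, from 110 and 58 counts. Ldha held 99.1% ± 0.37 (SD, n = 2) of the pair, and its level was below that of Pkm in each library. The lactate transporters were lower. Slc16a3, the exporter MCT4, stood at 4.43 and 5.90 TPM. Slc16a1, the transporter MCT1, stood at 1.09 and 1.77 TPM. Their sum was 5.52 and 7.67 TPM, under the 262 and 285 TPM of lactate dehydrogenase. Slc16a7, the transporter MCT2, is not among the 35 genes and stood above both, at 23.9 and 18.2 TPM from 1400 and 1128 counts, so Slc16a3 is the main one only of the chosen pair.

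Pyruvate dehydrogenase kinases hold pyruvate back from the mitochondrial citric acid cycle. Pdk1, a known HIF-1 target, stood at 5.54 and 7.03 TPM. Pdk3 stood at 9.72 and 11.9 TPM. Pdk3 held 63.2% ± 0.64 (SD, n = 2) of the pair, and the levels did not overlap. Only part of the Pdk1 level came from coding transcripts: Pdk1-201, its 1 transcript annotated as coding among those with TPM, held 37.3% and 44.0% in the first quantification and 20.0% and 23.8% in the second, where Pdk1-208, a processed transcript, led.

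Of the HIF alpha subunits, Hif1a (chromosome 12, 73901375 to 73947530, plus strand) stood at 35.1 and 30.9 TPM. Epas1, which encodes HIF-2 alpha and is known from endothelium, stood at 0.17 and 0.14 TPM, from 27 and 24 counts. Hif1a held 99.5% ± 0.02 (SD, n = 2) of the pair, and on the log2(TPM + 1) scale the difference was 4.95 and 4.81. The second quantification gave Epas1 0.51 and 0.48 TPM, and Hif1a 34.03 and 30.2 TPM. The transcripts Hif1a-201 and Hif1a-202, which start at 73907904 and 73901375 of chromosome 12, were near equal in the first quantification. There Hif1a-202 held 45.6% and 55.9% of the gene. In the second it held 35.6% and 48.9%, and Hif1a-201 led in both libraries with 62.8% and 50.5%.

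The prolyl hydroxylases were led by Egln2 at 36.5 and 32.7 TPM. Egln1, known as the main oxygen sensor for HIF-1, stood at 5.82 and 6.24 TPM. Egln3, itself a HIF target in many cells, had 4 counts in replicate 1 and 0 in replicate 2, where a count of 0 allows 3 counts, equal to 0.0647 CPM, a count per fixed total of the library. Egln2 held 85.1% ± 1.53 (SD, n = 2) of the family, and its level was close to that of Hif1a, with ranges that overlap. Vhl, the substrate-binding part of the ligase that removes HIF alpha, stood at 13.4 and 15.3 TPM.

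Both target genes were in the lower part of the expressed genes. Bnip3, a mitophagy receptor, stood at 11.7 and 11.8 TPM. Vegfa, the angiogenic growth factor, stood at 8.99 and 13.6 TPM, and in the second quantification at 12.1 and 16.3 TPM. Vegfa was spread over several transcripts, with Vegfa-202 leading at 61.3% and 44.9%. Among the 9781 protein-coding genes, Vegfa was at percentiles 33.4 and 44.0 and Bnip3 at 40.3 and 40.0, both below the median.

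**Figure D3:**
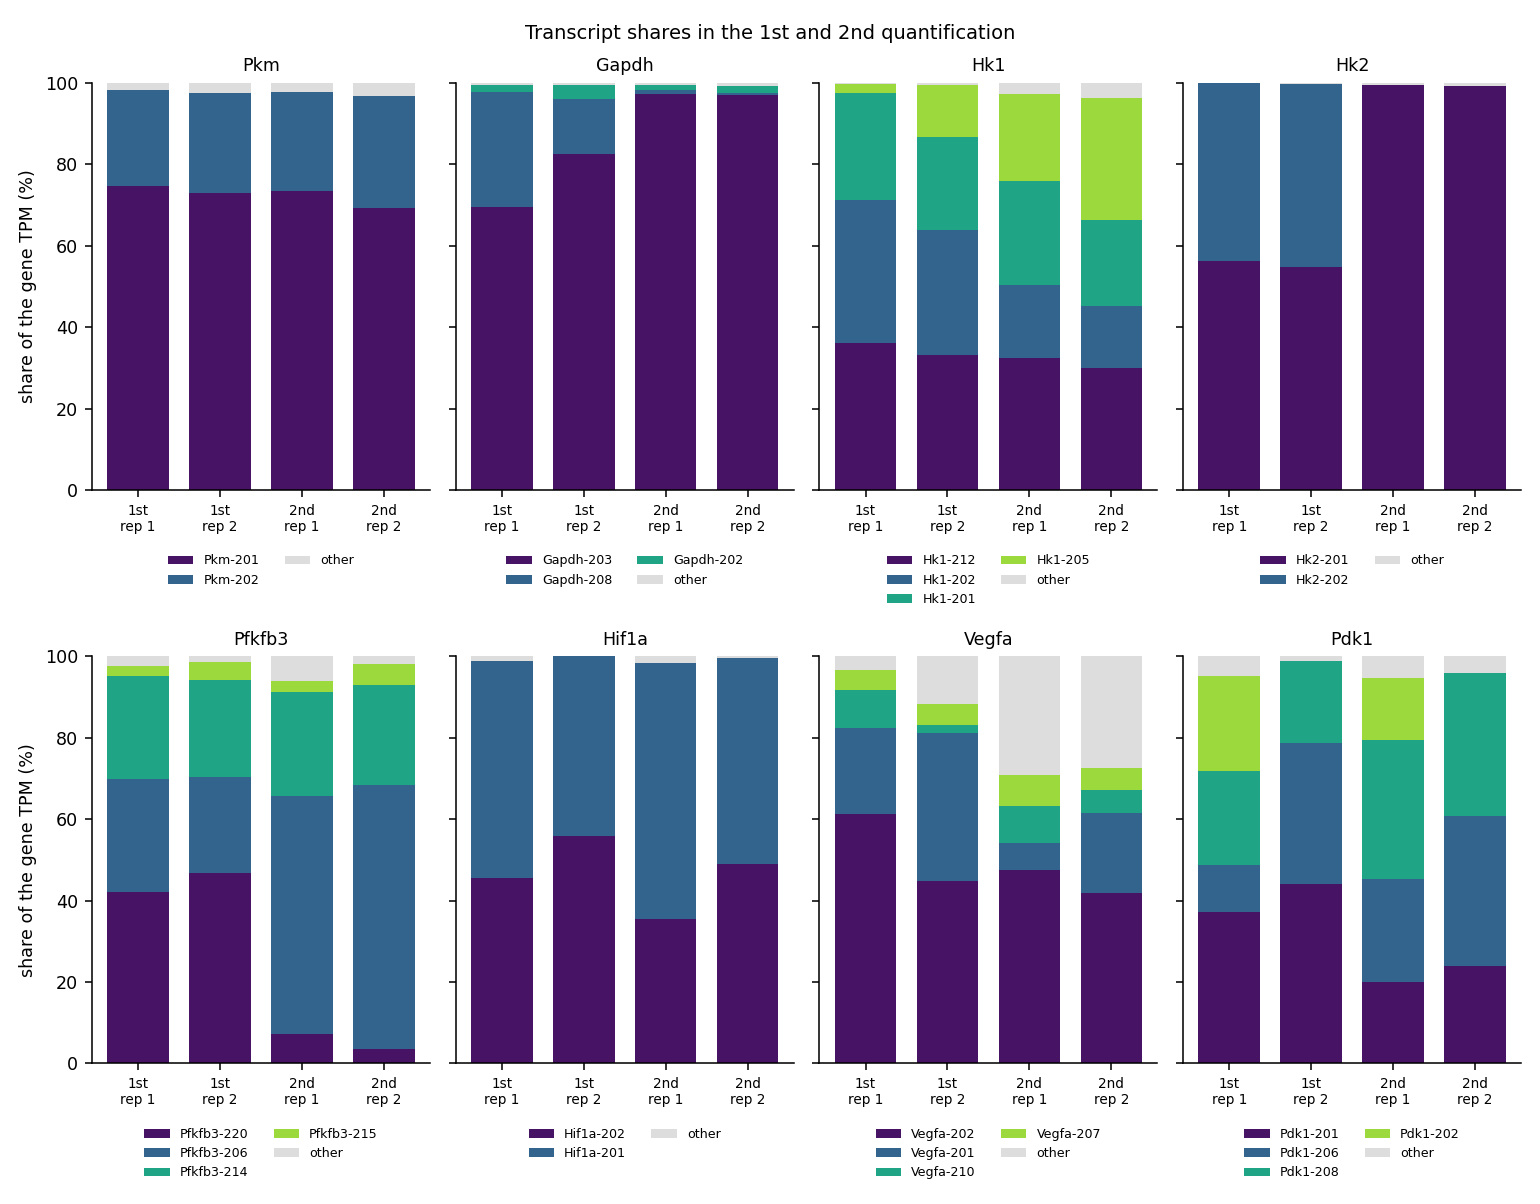
Share of the TPM of the gene held by its leading transcripts, in percent, for 8 of the genes, with bars for each replicate in the first and in the second quantification. Pkm keeps nearly the same split in all 4 bars, Gapdh-208 and Hk2-202 are seen in the first quantification and are small or absent in the second, and Pfkfb3-220 is replaced by Pfkfb3-206.

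Among 31 members with 1 TPM or more in both libraries, 29 had more than 1 annotated transcript. The leading transcript held a median of 88.4% of the TPM and 60% or more in both libraries for 21 genes. It was the same in both libraries for 28 genes and the same in both quantifications for 26. Transcripts annotated as coding held 90% or more in both libraries for 23 of them. The same counts were not made over all genes, so nothing particular to the members is read from them. Pgam1, Pgk1, Tpi1, Ldha and Eno1 were close to single-transcript genes, each with a leading share above 98.0%.

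Near-identical copies were searched among transcripts of other GENCODE genes, at 95% identity or more over at least 50% of the coding sequence. They were found for 9 of the 35 genes, 89 copies in all. The rest of the genome was not searched, positions of the copies were not checked, and genes beyond the 35 were not searched for copies. Gapdh had 74, of which 70 are annotated as pseudogenes, and these held 88.1 and 82.8 TPM in the first quantification and 14.0 and 84.7 TPM in the second. Pgk1 had 2 pseudogene copies with 16.6 and 27.5 TPM in the first and 5.61 and 48.8 TPM in the second. The 4 copies of Bnip3 held 0.09 and 0.69 TPM in the first but 7.80 and 12.7 TPM in the second, which is near the level of Bnip3. The single copy of Ldhb held 0.42 and 0.69 TPM beside its 2.91 and 1.68 TPM. Levels of Gapdh, Pgk1, Bnip3 and Ldhb are therefore uncertain to that extent, since reads of a gene and its copy may not have been told apart.

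**Figure D4:**
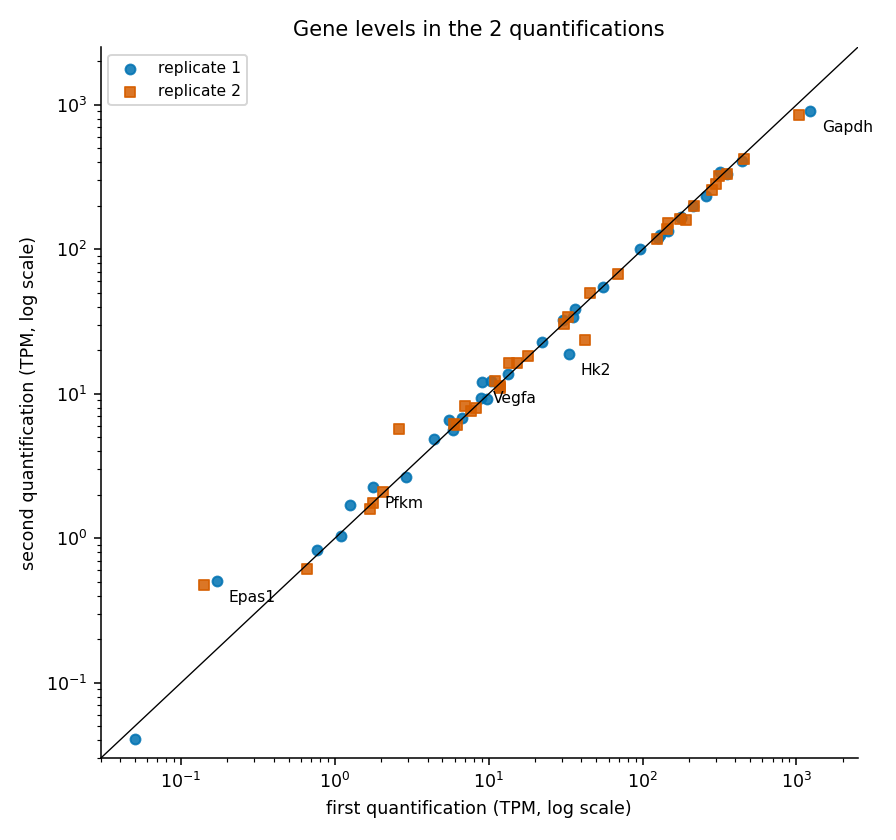
Level of each gene in the first quantification (x axis) and in the second (y axis), in TPM on log scales, with circles for replicate 1, squares for replicate 2 and the line of equal values. Most points lie on the line, Gapdh and Hk2 fall below it, and Pfkm, Vegfa and Epas1 rise above it; points at 0 TPM are not drawn.

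Over the 32 members with a mean of 1 TPM or more, the second quantification divided by the first had a median of 0.97 and ran from 0.56 to 2.22. Gapdh, Hk2, Pfkm and Vegfa were outside 0.8 to 1.25 in a library. Hk2 was the lowest and Pfkm the highest.

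The libraries were compared by counts, scaled for depth, over the 34 members that passed a filter on low counts, which Egln3 did not. The log2 ratio of replicate 2 over replicate 1 had a median of 0.14 over these members and 0.00035 over all 12543 genes that passed. It was above 0 for 22 members and below 0 for 12, where 50.0% of all genes were above 0. Only Aldoc lay 2-fold or more apart, where 4.21% of all genes did. With it, 4 members lay 1.5-fold or more apart, where 13.2% of all genes did, 3 of them higher in replicate 2 (6.23% of all genes) and 1 higher in replicate 1 (6.94%). Within 1.25-fold were 23 members, and 67.3% of all genes. The shares at the fold lines are close to the background. The median and the share above 0 were higher for the members than for all genes, which was not tested. A difference between 2 libraries has no replicate check.

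Aldoc had 65 and 152 counts, a log2 ratio of 1.33 with a 95% counting interval of 0.91 to 1.78. Slc16a1 had 165 and 244 counts and a log2 ratio of 0.68 (0.39 to 0.97). Pfkp had 3364 and 4673 counts and a log2 ratio of 0.59 (0.53 to 0.65). Ldhb went the other way, with 110 and 58 counts and a log2 ratio of -0.80 (-1.29 to -0.34). Of these 4 genes, 3 are minor isoenzymes or transporters under 3 TPM, and Pfkp, the main phosphofructokinase, is the one at a moderate level. The exact Clopper-Pearson interval covers counting error only. It excluded 0 for 29 of the 34 members and for 57.8% of all genes, and it is narrower for genes with more counts, so nothing is read from these shares about the members.

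By role, the 4 regulators, Pfkfb3, Pfkfb4, Pdk1 and Pdk3, had log2 ratios of 0.03 to 0.49, and the counting interval of Pfkfb4, -0.09 to 0.15, included 0. Of the 16 enzymes of the 10 steps, 10 were higher in replicate 2 and 6 in replicate 1, with a median of 0.13. Hk1, at 0.57, and Slc2a6, at 0.48, were the furthest apart among genes near or above 100 TPM. Among the 7 hypoxia genes kept, 3 were higher in replicate 2 and 4 in replicate 1, and Vegfa, at 0.50, was the furthest apart. The neutrophil markers and Kdr given above also differed between these libraries, as did the macrophage marker Cd14, at 348 and 691 TPM. The part of these markers in the ratios was not tested. In bulk RNA, fewer cells of a type and less RNA per cell cannot be told apart.

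**Figure D5:**
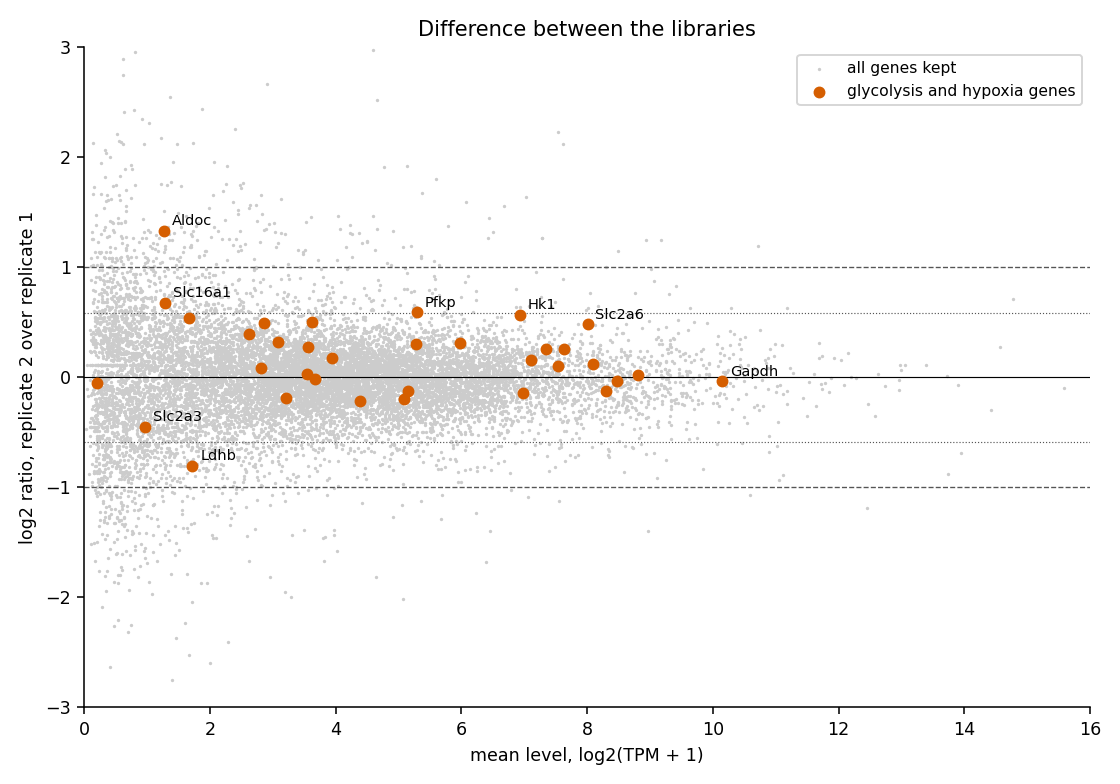
Log2 ratio of replicate 2 over replicate 1 (y axis) against the mean level as log2(TPM + 1) (x axis), with the glycolysis and hypoxia genes as large points over all 12543 genes in grey, dashed lines at 2-fold and dotted lines at 1.5-fold. Aldoc is the one member past the dashed lines and the abundant enzymes lie near 0; 4 of the grey genes fall outside the axis.

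Of 16 pairs of genes compared within each library, all 16 had the same gene higher in both, and 14 were 2-fold or more apart in both on the log2(TPM + 1) scale. The pairs closest to each other were Pkm over Ldha, with differences of 0.46 and 0.31, and Pdk1 over Pdk3, with -0.71 and -0.68. The widest was Aldoa over Aldoc, with 7.99 and 7.22. Which pairs were 2-fold apart in both libraries depended on the quantification. In the second, Pfkl over Pfkm had differences of 1.67 and 0.35. Over GENCODE basic transcripts, Slc16a3 over Slc16a1 had 1.07 and 0.99, while Pdk1 over Pdk3 widened to -1.81 and -1.65.

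A further 63 genes of the same pathways were read beside the 35. Of these, 22 stood at 10 TPM or more in both libraries, 5 at 100 TPM or more, and 23 under 1 TPM in both, 9 of them with 0 counts. Shares of all genes past these lines were not computed. The 10 highest were Elob, Bsg, Eloc, Nampt, Mpc1, Cited2, Rbx1, Txnip, P4ha1 and Pdhb. Elob and Eloc, the elongins that join Vhl in its ligase, stood at 278 and 186 TPM and at 210 and 196 TPM, and Rbx1, its RING subunit, at 101.3 and 92.4 TPM, all well above Vhl itself. Bsg, a chaperone that brings some lactate transporters to the membrane, stood at 237 and 217 TPM, above each of Slc16a7, Slc16a3 and Slc16a1.

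Nampt, which makes an NAD precursor, stood at 205 and 187 TPM. Mpc1, a subunit of the mitochondrial pyruvate carrier, stood at 175 and 196 TPM, and Pdhb, a subunit of pyruvate dehydrogenase, at 52.0 and 60.4 TPM. Cited2, a HIF target that competes with HIF for its coactivator, stood at 113 and 95.8 TPM, and P4ha1, a collagen prolyl hydroxylase and HIF target, at 78.2 and 73.0 TPM. Txnip, an arrestin that limits glucose uptake, stood at 73.4 and 102 TPM. Isoenzymes of other tissues, such as Pklr of liver and Ldhc of testis, had 0 counts in both libraries, as did Pdk4.

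Of these genes, 44 passed the count filter; 21 of them were higher in replicate 2, with a median log2 ratio of -0.05. Lying 2-fold or more apart were 2, against the 4.21% of all genes. Ndrg1, a HIF target, had 204 and 621 counts, at 2.14 and 7.13 TPM, with a log2 ratio of 1.72. Ddit4 had 12 and 24 counts and is named after its values were seen.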

How the data were processed

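PolyA-selected RNA of 2 libraries of 1 group was analysed. The authors deposited, per the file headers, gene and transcript tables with expected counts, TPM and FPKM, and a further transcript table with estimated counts and TPM. The README files deposited with the samples give the mm10 build and GENCODE M21, and name a transcriptome alignment as the parent of the first tables and the reads themselves as the parent of the further one. For aligner, quantifiers and strand handling, names and settings were not given in the sources used here, and reads of overlapping or antisense genes cannot be assumed to be separated. The labels do not say whether the replicates came from separate animals.

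Levels are deposited gene TPM. Expected counts were rounded, filtered with filterByExpr and scaled with TMM in edgeR 4.0.16 (R 4.3.3), with a prior count of 0.5 for log2 values, and this step was tested on simulated data. The intervals and the limit of 3 counts for a count of 0 cover counting error only. Log2 levels used a pseudocount of 1 TPM. Copies were searched with BLAST 2.17.0 among GENCODE transcripts. Alternatives used DESeq2 1.42.0 size factors, and other steps matplotlib 3.10.9, SciPy 1.17.1, NumPy 2.4.6 and pandas 2.3.3 in Python 3.11.15. All 35 members are named, and of 64 further pathway symbols, 63 were found. Those named are the 10 highest by mean TPM and any with a mean count of 100 or more that lay 2-fold or more apart. Ddit4, Pklr, Ldhc, Pdk4, Slc16a7, Slc2a8, Slc2a9, Eno3 and Pfkfb1 were added after their values were seen. Members and lists were chosen with earlier results of these data known.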

Additional observations from a re-analysis of the deposited data

How the results depend on the processing

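Of 464 recomputed values, 394 stayed within the spread between libraries, the counting interval or, for counts of genes, 1.5 times, 63 moved further and 7 changed sign. Leaving out a library cannot move a mean of both past their SD. Such values of levels, shares and pair ratios were thus among the 394 in advance, and the 394 does not measure how firm the results are. The 7 that changed sign are log2 ratios of replicate 2 over replicate 1, and the cause was not tested. In the second quantification the count ratio became -0.051 for Pgk1 and 0.056 for Bnip3, and the TPM ratio -0.063 for Pgk1, -0.047 for Bnip3, -0.0030 for Pfkfb4 and 0.0020 for Pkm. Over GENCODE basic transcripts, which leave out Gapdh-208 with its 350 and 140 TPM, the TPM ratio of Gapdh became 0.036. The second quantification gave 2924 TPM for the summed level of the 10 glycolytic steps, and shares of 83.2% for Pfkfb3, 58.1% for Pdk3, 98.5% for Hif1a and 73.3% for the M2-type Pkm transcript. These basic transcripts, an alternative chosen after seeing the data like the TPM ratios, gave a member median of 14.4 TPM, a summed level of 2815 TPM, and shares of 87.9% for Pfkfb3, 92.7% for Eno1, 73.7% for Slc16a3, 80.9% for Pdk3 and 99.6% for Hif1a; it drops short and non-coding entries. Expected counts, which favour long transcripts, gave shares of 94.96% for Slc2a6, 89.4% for Pfkfb3, 99.4% for Aldoa, 62.5% for Slc16a3, 53.8% for Pdk3, 99.5% for Hif1a and 75.2% for Egln2. The median in FPKM was 14.4, on another scale. Without the filter on low counts, 2 members lay 2-fold or more apart, since Egln3 then entered. The main isoenzyme of each step was the same under every alternative. Leaving out a library gave medians of 17.9 to 22.1 TPM. Ratios between the libraries allow no library to be left out, and no paired analysis was possible because there is 1 group. Depth limits Egln3, Epas1, Slc2a3, Aldoc and Ldhb, which rest on 152 counts or fewer in each library.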
